A study of Mus musculus with 16 samples.

Results

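The genes described here are the enzymes of cholesterol synthesis and the genes that sense, move, store and export sterols, 28 genes listed by name for their known role, with earlier results of these data known. Of these, 27 were paired with an entry of the count files, among 50600 genes in each library, and Hmgcs1, the synthase that makes hydroxymethylglutaryl-CoA, could not be paired and has no value. The study sequenced RNA of clonal neural progenitor cells (NPCs), grown from mouse embryonic stem cells, and of astrocytes made from such clones. It used the astrocytes to see how stable allelic expression is after differentiation. The NPC clones served to set selected genes beside their neighbours and beside chromatin accessibility. Every clone carries a 129Sv and a Cast/EiJ genome, so a read over a variant between the strains can be given to the 129 or the Cast allele.

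There were 5 astrocyte libraries, 1 each of the female clones 129, C2 and G4 and the male clones mC3 and mE6, made from poly(A)-enriched RNA. By the study's methods, BMP4 (10 ng/mL) and FGF2 (1 ng/mL) were given for 48 h to obtain these cells, while NPCs grew with EGF and FGF2, each at 10 ng/mL. There were 3 poly(A) NPC libraries, 1 each of the female clone F5 and the male clones mG2 and mG6, and 8 NPC libraries made after ribosomal RNA depletion, 2 for each of the male clones Ch3, Ch5, Ch7 and Ch8. The astrocyte and NPC clones are different clones, so they cannot be paired. Medium changes with the cell type, as do the prefixes of the library titles, A234 or B129 for astrocytes and B145 for poly(A) NPCs. The study's methods say that biological replicates were merged, without naming them, and the 2 libraries of a Ch clone are taken as such here. In the other groups there is 1 library per clone and the clones are the replicates. Total counts on genes were 78257443 to 93963293 reads in the astrocyte libraries, 69925081 to 105892734 in the poly(A) NPC libraries and 20871111 to 30920672 in the Ch libraries. Allele-specific reads numbered 26753109 to 32518327, 21555315 to 32263331 and 4193927 to 5971768 in the same order. Levels are in CPM, read counts scaled to the reads of their library, after TMM normalization, which scales libraries to one another, and since CPM is not corrected for gene length, levels are compared between samples and not between genes. The preparation separates the Ch libraries from the others, so their levels are set beside those of the poly(A) libraries only in an alternative that adds the Ch clones to the NPCs, where preparation and clone cannot be told apart.

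Cholesterol is built from acetyl-CoA by way of mevalonate, isoprenoids, squalene and lanosterol, and the genes of this chain share a regulator: the membrane-bound transcription factors SREBP1 and SREBP2, encoded by Srebf1 and Srebf2, are escorted by Scap to the Golgi and cut there when sterols are low, while the Insig proteins hold Scap in the endoplasmic reticulum when sterols are high. High sterol levels also give rise to oxysterols, which activate the liver X receptors (LXR), and these raise the exporters Abca1 and Abcg1 and the ubiquitin ligase Mylip. In the brain, cholesterol is made locally, and astrocytes are a main source that passes it to neurons on lipoprotein particles.

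Cell types were checked against marker genes. Of 8 astrocyte markers, 3 were higher in astrocytes than in poly(A) NPCs (Gfap, Aqp4 and Slc1a2), 1 was lower (Aldh1l1) and 4 did not pass edgeR's test, while DESeq2 called 5 higher and 1 lower. Gfap, an intermediate filament protein of astrocytes, was at 1977, 65.4, 224, 165 and 254 CPM in astrocyte clones 129, C2, G4, mC3 and mE6 and at 0.669, 2.12 and 1.82 CPM in NPC clones F5, mG2 and mG6. The astrocyte markers summed to 3338, 1459, 3708, 4616 and 4975 CPM in the astrocyte clones in that order and to 1506, 1813 and 1119 CPM in the NPC clones, and clone C2 lay within the NPC range. The most abundant of them was Gfap in clone 129, Aldoc in mE6 and Slc1a3 in the other libraries. All 4 proliferation markers were lower in astrocytes, with sums of 20.05, 25.1, 13.8, 14.3 and 8.99 CPM against 1194, 1251 and 1093 CPM and Cdk1, Top2a or Mki67 as the most abundant. Of 6 neural progenitor markers, 2 were lower (Nes and Olig2) and 0 higher by edgeR's quasi-likelihood test, with 3 lower and 1 higher at an unadjusted p under 0.05 and 3 lower and 0 higher by DESeq2. Among markers of other cells, 1 of 5 neuron markers was higher (Snap25) and 0 lower by edgeR, with 2 lower at an unadjusted p under 0.05, 1 lower by DESeq2 and a median log2 fold change of -0.87. Neuron markers summed to 822, 1352, 644, 619.5 and 453 CPM in astrocytes and 974, 1486 and 1789 CPM in NPCs. Of the remaining markers, 1 of 2 embryonic stem cell markers was lower (Pou5f1) and 1 of 3 fibroblast markers was higher (Col1a1). Stem cell markers summed to at most 1.95 CPM, mostly Nanog. Fibroblast markers summed to 17.8, 215, 34.1, 32.3 and 3.90 CPM in the astrocyte clones, where Col1a1 was the most abundant (211 CPM in C2), and to 1.92, 3.02 and 3.20 CPM in the poly(A) NPC clones, mostly Lum or Dcn. These are bulk libraries, in which fewer cells of a type and less RNA per cell cannot be told apart.

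Astrocytes were compared with poly(A) NPCs to ask how the sterol genes stand after differentiation. Of the 27 members, 4 were higher in astrocytes and 0 lower by edgeR's quasi-likelihood test with Benjamini-Hochberg adjustment over all 18192 genes tested, where 13.0% of all genes were called higher and 12.6% lower. At an unadjusted p under 0.05, 5 members were higher and 1 lower. DESeq2 called 5 members higher and 1 lower, and over all genes it called 6280 of 18192, of which 3280 were higher. The 4 calls are a share near that of all genes and are no result about the members as a set. They were Mylip and Abca1, which are LXR targets, the SREBP regulator Insig2, and Pmvk, a synthesis enzyme. All 5 astrocyte libraries lay above all 3 NPC libraries for 5 members, against 16.4% of all genes, and below them for 0 members, against 16.3%. The median log2 fold change was 0.03 for 15 synthesis enzymes, 0.62 for 5 genes of SREBP regulation, 0.23 for 4 genes of transport and esterification and 2.31 for 3 efflux and LXR genes, against 0.24 for all members and 0.08 for all genes tested. A log2 fold change above 0 was found for 19 of 27 members and for 9785 of 18192 genes. Medium, title prefix and cell type change together between these groups, and their parts cannot be told apart.

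**Figure D1:**
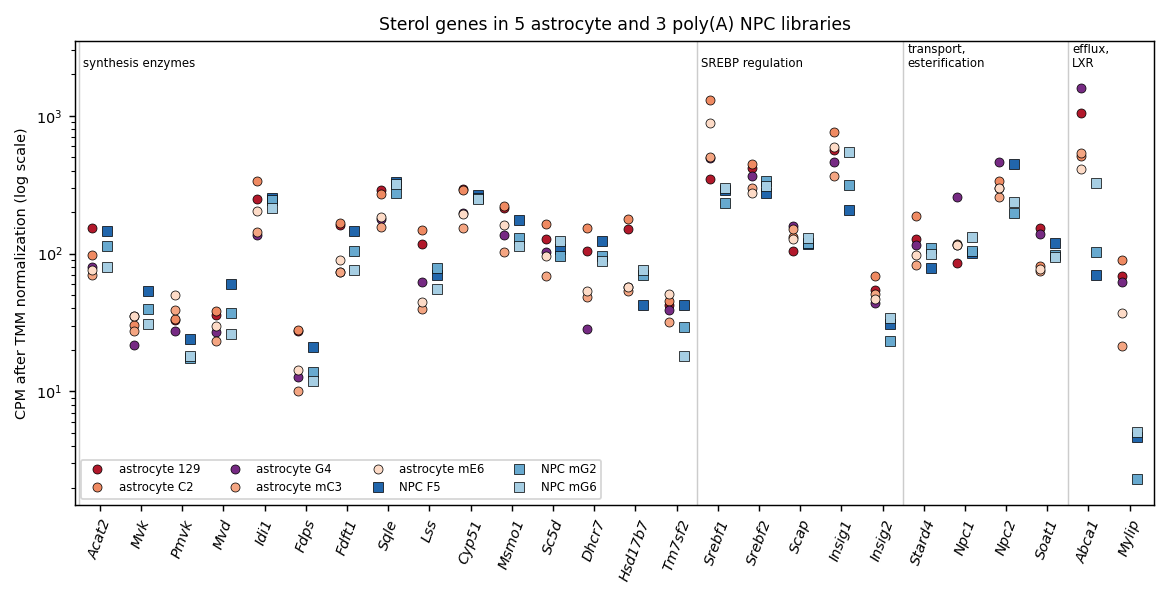
Level of each member except the nearly silent Abcg1 in CPM (log axis) in 5 astrocyte libraries (circles) and 3 poly(A) NPC libraries (squares), each point 1 library, grouped by role. Mylip and Abca1 lie higher in all astrocyte libraries than in any NPC library, while the groups overlap for 14 of 15 synthesis enzymes.

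Of the 3 genes of sterol export and LXR response, 2 were called higher in astrocytes and 1 was not called. The largest fold change of all members was that of Mylip. Mylip, an E3 ubiquitin ligase that marks lipoprotein receptors for degradation, was at 69.1, 89.1, 62.6, 21.3 and 37.1 CPM in astrocyte clones 129, C2, G4, mC3 and mE6 and at 4.68, 2.32 and 5.07 CPM in NPC clones F5, mG2 and mG6. Every astrocyte library was above every NPC library, with mC3 the lowest of the astrocytes. Its level was 13.9 times higher in astrocytes, a log2 fold change of 3.79 ± 0.55 (SE, n = 5 and 3, edgeR's quasi-likelihood test, Benjamini-Hochberg adjusted p = 0.00264), and it was called in 17 of 17 settings, with adjusted p from 1.63e-12 to 0.0150. Abca1, the transporter that loads cellular cholesterol onto apolipoproteins, was at 1052, 510.4, 1594, 537 and 411 CPM in the astrocyte clones in the same order and at 69.8, 103 and 323 CPM in the NPC clones. The groups did not overlap, but both were spread: G4 and 129 were the highest of the astrocytes, and mG6 stood above F5 and mG2. Abca1 was 4.97 times higher in astrocytes (log2 2.31 ± 0.67, SE, n = 5 and 3, adjusted p = 0.0369 in edgeR's quasi-likelihood test). That call was lost without astrocyte clone 129 (adjusted p = 0.0527), astrocyte clone G4 (0.0555), NPC clone F5 (0.113) or NPC clone mG2 (0.133), and with sex as a covariate (0.0911) or astrocytes of prefix A234 (0.0787) or B129 alone (0.0661). Without NPC clone mG6 it was called at a larger log2 fold change of 3.19 (0.0205, edgeR). It was called in 10 of 17 settings, with adjusted p from 0.00131 to 0.133. Abcg1, which hands cholesterol to lipoproteins, was nearly silent everywhere, at 0, 0.0794, 0.104, 0.165 and 0.454 CPM in astrocytes and 1.57, 0.189 and 1.92 CPM in NPCs. Its values overlapped and it was not called (log2 -2.92 ± 1.10, SE, n = 5 and 3, adjusted p = 0.0827 in edgeR's quasi-likelihood test), although 3 of 17 settings called it lower. These were DESeq2 (adjusted p = 0.0282), edgeR without astrocyte clone mE6 (0.0459, log2 -3.84) and edgeR with the Ch clones added (0.0116), within 0.0116 to 0.238. The 0 reads of Abcg1 in clone 129 allow up to 0.0340 CPM.

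Among 8 further LXR and sterol-sensing genes tested, 2 were higher in astrocytes and 0 lower by edgeR, with 4 higher and 0 lower at an unadjusted p under 0.05 and 3 higher and 0 lower by DESeq2. Cyp46a1, the hydroxylase that makes 24-hydroxycholesterol in the brain, was at 26.8, 52.3, 58.0, 40.2 and 32.0 CPM in the astrocyte clones and 1.83, 3.47 and 4.25 CPM in the NPC clones. No NPC library came near the lowest astrocyte library (log2 3.72 ± 0.41, SE, n = 5 and 3, adjusted p = 7.76e-04, edgeR's quasi-likelihood test). Rxra, a partner receptor of LXR, rose as well (log2 1.19 ± 0.32, SE, n = 5 and 3, adjusted p = 0.0280, edgeR), from 53.9 to 62.5 CPM in the NPC libraries to 63.5 to 179 CPM in the astrocyte libraries. Nr1h3, which encodes LXR alpha, was at 5.44, 3.17, 0.324, 2.67 and 2.16 CPM in astrocytes and 3.09, 0.446 and 0.209 CPM in NPCs, overlapping. Ch25h and Cyp27a1, which make other oxysterols, had too few reads to be tested.

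Of the 5 SREBP regulators, 1 was called higher in astrocytes and 4 did not pass, though all had log2 fold changes above 0. Insig2, which retains the Scap complex in the endoplasmic reticulum, was at 54.5, 68.6, 43.9, 51.1 and 46.4 CPM in astrocyte clones 129, C2, G4, mC3 and mE6 and at 31.1, 23.3 and 33.8 CPM in NPC clones F5, mG2 and mG6. All astrocyte libraries were above all NPC libraries. It was 1.80 times higher (log2 0.85 ± 0.21, SE, n = 5 and 3, adjusted p = 0.0199, edgeR's quasi-likelihood test), and the call was lost without NPC clone F5 (adjusted p = 0.0566) or mG2 (0.0891) and with B129 astrocytes alone (0.0707). It was called in 14 of 17 settings, with adjusted p from 2.38e-04 to 0.0891. Srebf1, which encodes the SREBP of fatty acid and cholesterol genes, was at 347, 1297, 489.9, 502 and 882 CPM in astrocytes and 288, 232 and 301 CPM in NPCs. The groups did not overlap, yet clone 129 was close to the NPCs while C2 was well above the others. Its log2 fold change of 1.36 ± 0.44 (SE, n = 5 and 3) did not pass edgeR's quasi-likelihood test (adjusted p = 0.0510), but it passed without clone 129 (0.0234), in DESeq2 (0.0127), with library totals (0.0489), with B129 astrocytes alone (0.0439) and with the Ch clones added (0.0230). These are 5 of 17 settings, within a range of 0.0127 to 0.165. Srebf2, the SREBP with most effect on cholesterol genes, was at 420.4, 445, 364, 299 and 276 and 275, 336 and 308 CPM in the 2 groups, and Scap at 104, 132, 158, 151 and 128 and 116, 119 and 129 CPM. Both overlapped between the groups. Insig1, whose own level rises with SREBP activity, was at 564, 764, 458, 364 and 592 CPM in astrocytes and 207, 315 and 549 CPM in NPCs, with NPC clone mG6 inside the astrocyte range (log2 0.62 ± 0.36, SE, n = 5 and 3, adjusted p = 0.232, edgeR).

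The synthesis enzymes as a chain did not move in 1 direction: 1 of 15 was called higher and 0 lower by edgeR, with the same counts at an unadjusted p under 0.05 and by DESeq2, and 8 of 15 had a log2 fold change above 0. Pmvk, phosphomevalonate kinase, was at 32.7, 33.5, 27.5, 38.8 and 50.1 CPM in astrocyte clones 129, C2, G4, mC3 and mE6 and at 23.9, 17.5 and 17.9 CPM in NPC clones F5, mG2 and mG6. Each astrocyte library was above each NPC library, with G4 and F5 nearest to each other. It rose 1.85 times (log2 0.88 ± 0.24, SE, n = 5 and 3, adjusted p = 0.0270, edgeR's quasi-likelihood test). In the same edgeR test it did not pass without astrocyte clone mC3 (adjusted p = 0.0565), NPC clone mG2 (0.111) or mG6 (0.115), without a filter on low counts (0.0587) or with B129 astrocytes alone (0.137). It was called in 12 of 17 settings, within a range of 9.65e-04 to 0.137. Next to it in the chain, the kinase Mvk (log2 -0.45 ± 0.24, SE) and the decarboxylase Mvd (-0.41 ± 0.29) had estimates below 0 without passing, as did Sqle (-0.52 ± 0.24), which epoxidises squalene. Mvk and Mvd were at -0.23 and -0.034 without NPC clone F5, and at -0.69 and -0.72 without mG6. For Fdps, Fdft1, Lss and Sc5d the sign of the fold change turned under several alternatives, and for Idi1 and Cyp51 only with the Ch clones added, so no direction is given for them. The later enzymes Msmo1 (0.27 ± 0.28), Hsd17b7 (0.65 ± 0.49) and Tm7sf2 (0.49 ± 0.28) had estimates above 0, and Acat2 (-0.24 ± 0.30) and Dhcr7 (-0.40 ± 0.49) below 0, and none of these passed. With 1 library left out, estimates ran from 0.07 to 0.46 for Msmo1, 0.29 to 0.82 for Hsd17b7 and 0.16 to 0.82 for Tm7sf2. For Acat2 they ran from -0.50 to -0.02 and for Dhcr7 from -0.85 to -0.23.

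Transport and esterification genes showed no call, with 0 of 4 passing edgeR in either direction, 0 at an unadjusted p under 0.05 and 0 by DESeq2. Stard4, which carries cholesterol between membranes, was at 128, 188, 115, 83.1 and 96.8 CPM in astrocytes and 79.0, 110.4 and 98.9 CPM in NPCs. Npc1, which exports cholesterol from lysosomes, was at 85.6, 117, 255, 115 and 115 CPM in astrocytes, with G4 more than 2 times above the next clone, and at 100.1, 105 and 132 CPM in NPCs. Npc2, its soluble partner, was also highest in G4 among the astrocytes (463 CPM against 258 to 334), but NPC clone F5 came close (449 CPM against 195 and 237). Soat1, which esterifies cholesterol for storage, ranged from 74.6 to 154 CPM in astrocytes around 94.9 to 120.2 CPM in NPCs. All 4 overlapped between the groups.

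**Figure D2:**
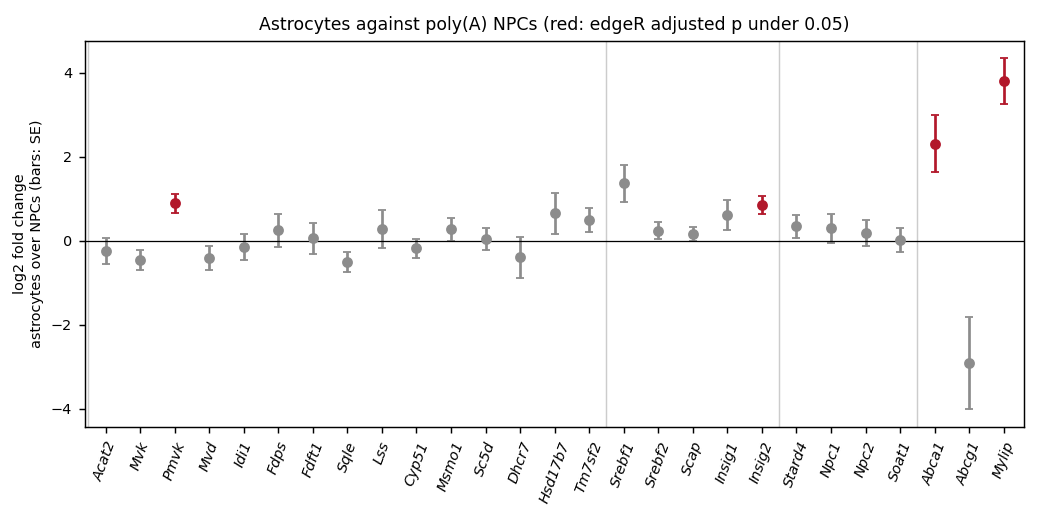
Log2 fold change of each member, astrocytes over poly(A) NPCs (vertical axis, log2 units), with its standard error as bars and red for an edgeR adjusted p under 0.05, 5 against 3 libraries. The synthesis enzymes at the left scatter around 0, while of the efflux and LXR genes at the right Abca1 and Mylip stand at 2.31 and 3.79 and Abcg1, which did not pass, at -2.92.

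Related lipid pathways were compared in the same way, where 13.0% of all genes were called higher and 12.6% lower. Of 11 genes of fatty acid synthesis and desaturation under SREBP, 1 was higher in astrocytes, Acss2, the cytosolic acetyl-CoA synthetase (log2 1.70 ± 0.41, SE, n = 5 and 3, adjusted p = 0.0180, edgeR), and 1 lower, the elongase Elovl6 (-1.11 ± 0.22, adjusted p = 0.00857). The desaturase Scd1 was at 1176, 3897, 15.3, 655 and 1643 CPM in astrocyte clones 129, C2, G4, mC3 and mE6 and at 534, 9.02 and 562 CPM in NPC clones F5, mG2 and mG6. Astrocyte clone G4 and NPC clone mG2 were far below the other clones of their group, and with such spread it was not called (log2 2.005 ± 1.52, SE, n = 5 and 3, adjusted p = 0.367, edgeR). Of 6 genes of lipoprotein handling, 0 passed edgeR, with 1 higher at an unadjusted p under 0.05 and 0 by DESeq2, and the largest estimates were those of Lpl (2.04 ± 1.45), Lrp8 (1.08 ± 0.42) and Vldlr (0.96 ± 0.63). Lpl, the lipoprotein lipase, ran from 0.375 CPM in astrocyte clone 129 to 446 CPM in mE6. Of 6 genes of the isoprenoid branch, which leaves the chain before sterols, 0 passed edgeR, with 1 lower at an unadjusted p under 0.05 and 1 lower by DESeq2, and the largest estimates were Pdss1 (-0.62 ± 0.21), Fntb (-0.43 ± 0.44) and Ggps1 (0.38 ± 0.19).

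While 14 of 15 synthesis enzymes did not pass the test between the cell types, most were high or low together in the poly(A) libraries of 1 type. For each kind of library, each gene was set against its own mean log2 CPM over those libraries (0.5 added), as a description with no test. Of the 15 synthesis enzymes, 14 were above their mean in astrocyte clone 129 and 14 in clone C2, all but Pmvk in both, with median deviations of 0.43 and 0.47 on the log2 scale. In G4, 0 of 15 were above (median -0.24), in mC3 1, which was Pmvk (median -0.50), and in mE6 5 (median -0.17). Over all genes tested, 47.1 to 50.8% were above their mean in these libraries. Most enzymes thus divided the astrocytes into a high pair and a low set of 3. Tm7sf2 and Pmvk were highest in mE6, however, and Mvk was higher in mE6 than in C2. Deviations from a mean balance out, so high values in the pair place the others lower. Each astrocyte clone has 1 library, so clone and library cannot be told apart. In the Ch clones, with 2 libraries each, the number of the 15 above their mean could differ within a clone. It was 7 and 13 in Ch3, 3 and 3 in Ch5, 11 and 13 in Ch7 and 5 and 9 in Ch8. The high pair are both female and the low set holds the female clone G4 and the male clones mC3 and mE6. By title prefix, 129 goes with mC3 and mE6 (A234) and C2 with G4 (B129). Hsd17b7, a ketoreductase of the late steps, showed it most plainly, at 149.7, 178, 57.6, 53.1 and 57.0 CPM in clones 129, C2, G4, mC3 and mE6. Clones 129 and C2 lay more than 2 times above the others. Lss, which closes the ring to lanosterol, was at 117, 147, 61.7, 39.6 and 44.6 CPM and Idi1, the isomerase that makes dimethylallyl diphosphate, at 250.1, 335, 136, 142 and 203 CPM. Both had C2 highest and 129 next. Dhcr7, the reductase of the last step, was at 104, 153, 28.1, 48.5 and 53.6 CPM, and its ratio of highest to lowest library, 5.34, was at percentile 90.3 of all genes tested, while those of Lss (3.68) and Hsd17b7 (3.33) were at 84.5 and 82.4. The ratio of Dhcr7 rests on G4, in which its 129 allele was nearly silent as given below, and the next lowest clone was mC3. Stard4, Srebf2 and Mylip, given above, had the same pair on top, as did Insig2. Srebf1 was lowest in clone 129, Insig1 was higher in mE6 than in 129, Scap was lowest in 129, Pmvk was highest in mE6 and Abca1 in G4, so the regulators did not follow the pair as a group.

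Values that moved with this pair of clones are given here, and their part in it was not tested. The 8 astrocyte markers, given above, had their lowest sums in 129 and C2 as well, and the fibroblast sum was highest in C2 alone. The astrocyte sum of 129 was nearer to that of G4 (3338 against 3708 CPM) than to that of C2 (1459 CPM). Gfap, 1 of these markers, was highest in 129 and lowest in C2, so the list did not mark the pair as a whole. The 6 neural progenitor markers summed to 461, 412, 758, 1183 and 1495 CPM in clones 129, C2, G4, mC3 and mE6, lowest in 129 and C2, with Fabp7 the most abundant except in C2, where Nes was. The sum of the 5 neuron markers was highest in C2 and 129 and almost all of it was Map2. The 4 proliferation markers were also highest in these clones, although low in all. The fatty acid list followed in C2, with 9 of 11 above their mean (median 0.52), and less in 129, with 7 (median 0.15), against 5 in G4, 2 in mC3 and 6 in mE6.

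Among the 3 poly(A) NPC clones, 13 of 15 enzymes were above their mean in F5 (median 0.28), all but Sc5d and Hsd17b7, against 5 in mG2 (median -0.02) and 3 in mG6 (median -0.28), while 49.0 to 50.9% of all genes were above. Mvd, the decarboxylase of the mevalonate branch, was at 60.3, 37.2 and 26.0 CPM in F5, mG2 and mG6 and Fdft1, which joins farnesyl units to squalene, at 146, 104 and 75.6 CPM. Both stepped down in that order, whereas Hsd17b7 went the other way, at 42.2, 70.3 and 76.4 CPM. Neural progenitor sums stepped in the same clone order, at 4878, 4047 and 3399 CPM. The neuron sums given above, almost all Map2, stepped in the other direction. The astrocyte and proliferation sums given above did not step and were highest in mG2. The part of the markers was not tested. The fatty acid list did not follow F5, with 5 of 11 above in F5, 4 in mG2 and 9 in mG6.

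**Figure D3:**
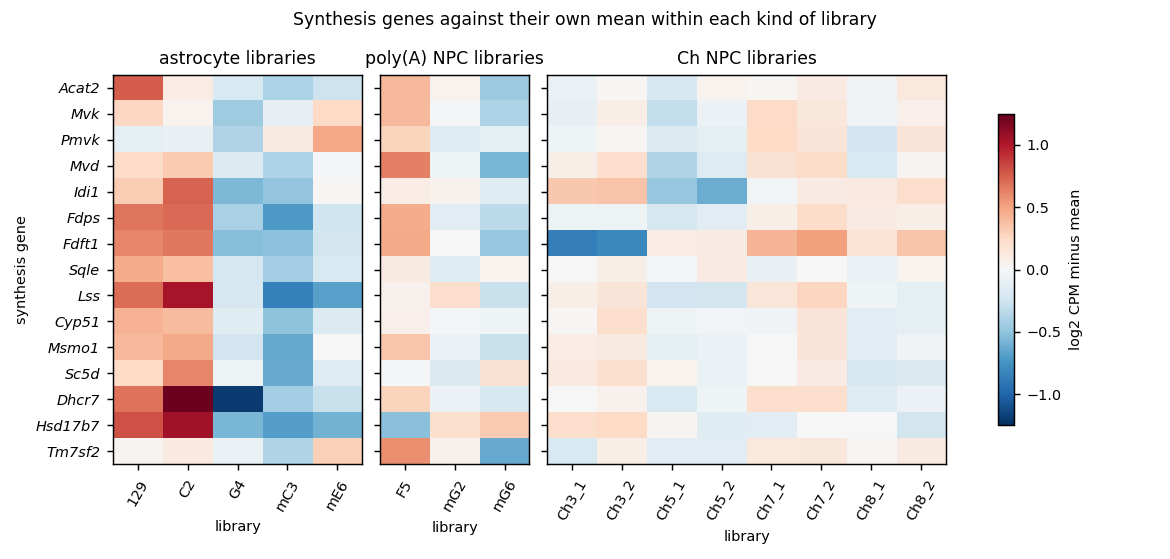
Log2 CPM of each synthesis enzyme minus its mean over the libraries of the same kind (colour scale, log2 units), for 5 astrocyte, 3 poly(A) NPC and 8 Ch NPC libraries. Astrocyte clones 129 and C2 are above the mean for 14 of 15 genes each, and the largest deviations in the Ch libraries are those of Fdft1 in Ch3 and Ch7 and Idi1 in Ch5.

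Promoters were searched because SREBPs are known to bind DNA beside other factors, and those of 5 members are shown as examples. Windows of 250 bases before to 50 after the transcript start, from RefSeq on GRCm38.p6, were at hand for 22 of the 28 members, 30 windows in all. They were searched on both strands for TCACNCCAC, a form of the sterol regulatory element, CACGTG, an E-box that SREBPs can also bind, and CCAAT, the letters bound by NF-Y, a common partner of SREBP, which read ATTGG on the other strand. CCAAT was in 20 of 30 windows (66.7%), against 37.4% of 32851 windows of all genes. CACGTG was in 7 of 30 windows (23.3%) against 7.15%, where the 2 windows of Scap overlap and hold the same site, and TCACNCCAC in 1 of 30, that of Hmgcs1, which has no level here, against 1.24%. All 5 windows shown hold CCAAT letters and none holds TCACNCCAC. Of the 22 members, 19 have a window with CCAAT letters, and Abca1, Acat2 and Scap have none. Sequences below are in lower case with matches in capitals, each window read 5′ to 3′ on the strand of its gene, and no 2 matches overlap. Dhcr7 has 3 windows, of which the one shown is chr7:143829964-143830263 on the plus strand, with CCAAT letters 85 and 49 bases before the start. The other 2 hold no CCAAT letters, but chr7:143823149-143823448 among them holds CACGTG 164 bases before its start. Lss, with CCAAT letters 62 bases before, is shown at chr10:76531355-76531654 on the plus strand, Hsd17b7 at chr1:169969156-169969455 on the minus strand, Idi1 at chr13:8885356-8885655 on the plus strand and Mylip at chr13:45389492-45389791 on the plus strand.
Dhcr7: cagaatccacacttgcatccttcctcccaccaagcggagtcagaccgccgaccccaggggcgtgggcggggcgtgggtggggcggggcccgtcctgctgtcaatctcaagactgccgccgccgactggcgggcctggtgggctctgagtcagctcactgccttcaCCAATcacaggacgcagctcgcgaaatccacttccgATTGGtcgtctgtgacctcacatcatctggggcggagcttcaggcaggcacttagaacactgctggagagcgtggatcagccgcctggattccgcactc
Lss: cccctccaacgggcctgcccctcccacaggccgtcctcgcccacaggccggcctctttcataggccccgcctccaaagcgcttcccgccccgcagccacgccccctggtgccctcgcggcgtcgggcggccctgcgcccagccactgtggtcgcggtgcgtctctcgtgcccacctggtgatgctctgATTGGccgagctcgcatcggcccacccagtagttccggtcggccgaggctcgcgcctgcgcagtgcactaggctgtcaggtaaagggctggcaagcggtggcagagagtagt
Hsd17b7: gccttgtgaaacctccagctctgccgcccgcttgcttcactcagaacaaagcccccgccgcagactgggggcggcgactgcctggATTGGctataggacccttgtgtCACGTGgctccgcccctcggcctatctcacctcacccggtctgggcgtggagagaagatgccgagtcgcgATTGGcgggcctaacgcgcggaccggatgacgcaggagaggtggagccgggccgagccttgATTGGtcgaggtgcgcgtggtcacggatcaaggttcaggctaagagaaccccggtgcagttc
Idi1: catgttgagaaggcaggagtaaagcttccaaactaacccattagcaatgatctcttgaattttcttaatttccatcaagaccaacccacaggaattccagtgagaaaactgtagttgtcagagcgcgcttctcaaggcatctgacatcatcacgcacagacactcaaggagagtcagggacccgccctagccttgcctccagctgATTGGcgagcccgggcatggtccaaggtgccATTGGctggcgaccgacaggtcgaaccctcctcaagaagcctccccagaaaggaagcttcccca
Mylip: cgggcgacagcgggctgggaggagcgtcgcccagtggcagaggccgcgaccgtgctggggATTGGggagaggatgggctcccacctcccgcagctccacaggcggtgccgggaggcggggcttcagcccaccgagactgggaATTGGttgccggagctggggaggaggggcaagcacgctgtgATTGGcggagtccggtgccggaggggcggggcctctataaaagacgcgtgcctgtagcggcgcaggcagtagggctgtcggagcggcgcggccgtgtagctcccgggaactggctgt
Hsd17b7 holds CACGTG 143 bases before its start and CCAAT letters at 165, 73 and 12 bases before, and Idi1 holds CCAAT letters at 45 and 14 bases before. Mylip, an LXR target outside the chain, holds CCAAT letters 3 times as well. A match describes the letters in the window and shows neither binding nor its effect.

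The Ch clones, with 2 libraries each, allow a test of differences between clones of NPCs. Of the 27 members, 8 differed among the 4 clones in edgeR's quasi-likelihood F test (Benjamini-Hochberg adjusted p under 0.05), where 16.6% of 17095 genes did. They were the synthesis enzymes Mvd, Idi1, Fdft1, Lss and Dhcr7, with Scap, Npc2 and Abca1. Fewer members were called without replicate 1 or 2 of Ch3 (4 and 3) and without replicate 1 or 2 of Ch7 (5 and 4), and 3 and 4 without all of Ch3 or all of Ch7. Calls over all genes were fewer in these settings too. They went from 2834 of 17095 with every library to 1868 of 17914 and 1509 of 17696 for Ch3 and 1832 of 17950 and 1803 of 17958 for Ch7. Without the whole clone they were 1112 of 16669 and 1798 of 16758. Whether members lost calls more often than all genes was not tested. Abca1, Fdft1 and Idi1 were called whichever single library was left out.

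Fdft1, squalene synthase, was at 44.6 and 46.2 CPM in the libraries of Ch3, 86.7 and 87.4 in Ch5, 109 and 116 in Ch7 and 91.3 and 104 in Ch8. Both Ch3 libraries were far below the other 6 (adjusted p = 2.75e-05, edgeR's quasi-likelihood F test, 8 libraries, 4.87e-34 to 0.102 over all settings). Idi1 was at 153 and 155 CPM in Ch3, 87.1 and 78.6 in Ch5, 119 and 129.97 in Ch7 and 132 and 142 in Ch8. Here Ch5 was the low clone (adjusted p = 3.89e-04, edgeR, 7.06e-15 to 0.0652 over all settings). Abca1 was at 28.8 and 25.2 CPM in Ch3, 134 and 111 in Ch5, 90.0 and 97.4 in Ch7 and 36.9 and 31.6 in Ch8. Ch5 and Ch7 were high and Ch3 and Ch8 low, with no overlap (adjusted p = 2.69e-06, edgeR), and the ratio of highest to lowest library, 5.24, was at percentile 98.6 of all genes tested.

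The other calls were smaller. Scap was at 141 and 138 CPM in Ch3 and between 99.6 and 108 CPM in the other clones (adjusted p = 0.00488, edgeR), but it did not pass with replicate 1 or replicate 2 of Ch3 left out (0.0681 and 0.0610, within 1.95e-05 to 0.844 over all settings). Npc2 was at 100.1 and 93.2 CPM in Ch3 and between 58.4 and 82.7 CPM elsewhere (adjusted p = 0.0190, edgeR), and it did not pass with any single library of Ch3 or Ch7 left out (0.0632 to 0.132, within 4.13e-06 to 0.345). Lss, Mvd and Dhcr7 (adjusted p = 0.0121, 0.0342 and 0.0360, edgeR) were higher in Ch7 than in Ch5 or Ch8, as at 117 and 117 CPM in Ch7 against 87.9 to 96.4 CPM in Ch5 and Ch8 for Dhcr7. Without replicate 2 of Ch7 their adjusted p in edgeR was 0.0802, 0.129 and 0.219, and over all settings it ran from 0.00111 to 0.0802, 0.00160 to 0.135 and 0.0157 to 0.515. None of the 3 passed without replicate 2 of Ch3 either (0.0505, 0.0931 and 0.0938, edgeR). Of the 15 enzymes, 11 and 13 were above their mean in the 2 libraries of Ch7 (medians 0.07 and 0.16), 3 and 3 in Ch5 (-0.17 and -0.09), 7 and 13 in Ch3, and 5 and 9 in Ch8, against 48.5 to 53.0% of all genes. The fatty acid list was high in Ch7 too, with 9 and 10 of 11 above their mean. Over all genes tested, 16.6% differed among the clones. Of the other lists, 3 of 11 fatty acid genes (Scd1, Scd2 and Mid1ip1) and 2 of 8 LXR and sterol-sensing genes (Lpcat3 and Cyp7b1) did. So did 5 of 6 lipoprotein genes (Apoe, Lrp1, Scarb1, Vldlr and Lrp8) and 1 of 6 isoprenoid genes (Dhdds). The genes of these lists are named because they passed, after their values were seen. Of the marker genes, 7 of 8 astrocyte, 3 of 6 neural progenitor, 3 of 4 proliferation and 2 of 5 neuron markers differed as well, and 0 of 1 embryonic stem cell and 0 of 1 fibroblast markers tested. Their part in the differences was not tested.

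Allele-specific reads show from which genome a member was transcribed. Percent Cast is the share of Cast reads among the allele-specific reads of a gene in a clone with at least 20 such reads, the 2 libraries of a Ch clone summed. Values from 35 to 65% are called biallelic here, those under 15 or over 85% monoallelic, and the rest biased. Of 317 member values, 270 (85.2%, Wilson 95% interval 80.8 to 88.7%, which takes values as independent although genes repeat over clones) were biallelic, 10 (3.15%) monoallelic and 37 biased, against 82.0% biallelic and 5.59% monoallelic of the values of autosomal genes, so the members lie near the background. Of 25 members with 20 reads in all 12 clones, 7 were monoallelic in at least 1, where 16.6% of autosomal genes were. Among the same 25, 11 were biallelic in every clone, a count with no share of all genes to set beside it. The 10 monoallelic values fall into 2 kinds by their surroundings, read from the median percent Cast of the genes in the same 20 Mb window. In 5 of them the window was of 1 allele as well: Stard4 and Npc1 in NPC clone mG2, with 11 of 4583 and 2 of 3322 Cast reads on a chromosome 18 with a median of 0.0672%, and Npc2 in Ch5, Ch7 and Ch8 (99.9, 99.8 and 99.9%) on a chromosome 12 with a median of 100% in those clones. In the other 5 the window was balanced, from 40 to 60%, while the gene was of 1 allele: Fdft1 in Ch3, Idi1 in Ch5, Dhcr7 in astrocyte clone G4, and Insig1 in astrocyte clone C2 and NPC clone F5. Without windows of unequal balance, a split chosen after seeing the data, 89.0% of 291 member values were biallelic and 1.72% monoallelic, against 84.97% and 4.24% of autosomal values.

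**Figure D4:**
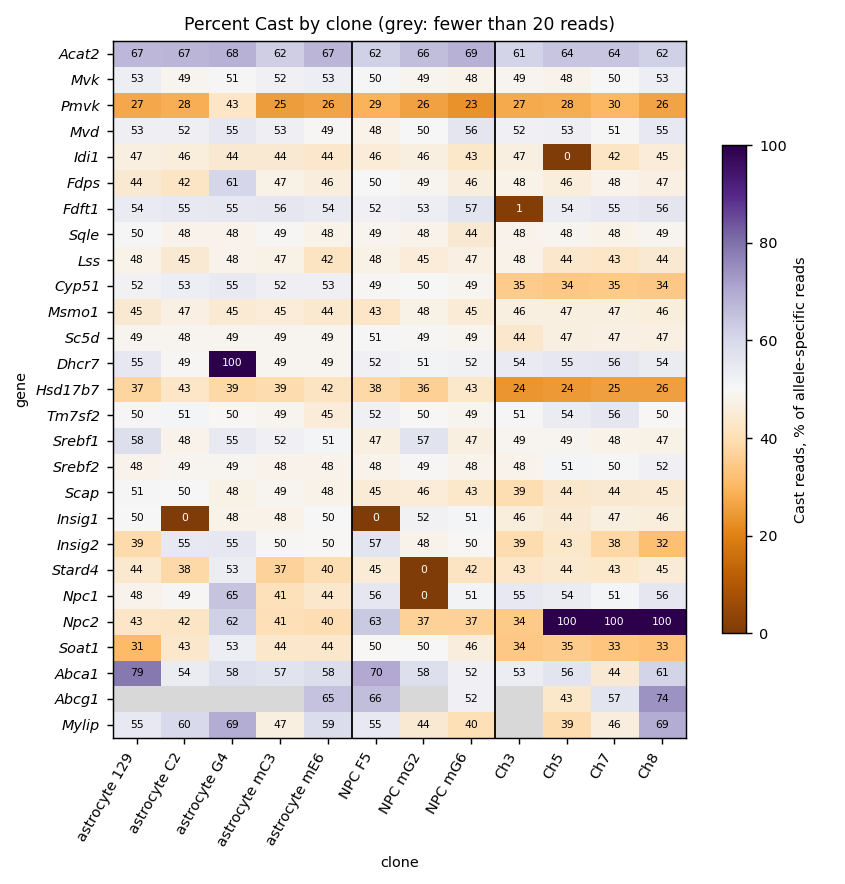
Percent Cast of each member in 12 clones (colour scale and rounded numbers, in %), with grey for fewer than 20 allele-specific reads and black lines between astrocytes, poly(A) NPCs and Ch NPCs. Most squares are near 50%, Acat2 is above and Pmvk below 50% in all clones, and the dark squares are the 10 monoallelic values.

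Fdft1 and Idi1 had their lowest total level in the Ch clone in which the Cast allele was silent or nearly so. Fdft1 had 4 of 444 allele-specific reads from Cast in Ch3, 0.901% (Wilson interval 0.351 to 2.29%), with 1 and 3 Cast reads in its 2 libraries, and 53.9, 55.1 and 56.1% in Ch5, Ch7 and Ch8. The 129 allele of Fdft1 gave 44.0 RPM (reads scaled in the same way to the allele-specific reads of the clone) in Ch3 and 44.4, 57.6 and 48.2 in the others, while the Cast allele gave 0.4003 against 51.9, 70.6 and 61.6. The 129 allele in Ch3 was thus just below its lowest value elsewhere, and the Cast allele was nearly absent. Idi1 had 0 of 188 reads from Cast in Ch5, of 100 and 88 in its libraries, with a Wilson upper limit of 2.002%, and 46.6, 42.5 and 45.3% in the other Ch clones. Its 129 allele gave 17.0 RPM in Ch5 and 18.6, 17.9 and 18.9 in Ch3, Ch7 and Ch8, and its Cast allele 0 against 16.2, 13.2 and 15.7. Again the remaining allele was just below its level in the other clones. Intervals cover counting error only, since reads are not independent molecules.

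Dhcr7 was expressed from Cast in astrocyte clone G4, with 809 of 812 reads (99.6%, Wilson interval 98.9 to 99.9%), and was at 55.1, 49.5, 48.8 and 49.1% in clones 129, C2, mC3 and mE6 and at 51.3 to 55.9% in the NPC clones of both preparations. The window around it was balanced in G4 (51.3%). Its Cast allele gave 30.2 RPM in G4, near 27.4 and 28.7 in mC3 and mE6 and below 71.2 and 82.4 in 129 and C2, and its 129 allele gave 0.112 RPM in G4. G4 had the lowest total of Dhcr7 of all astrocyte clones.

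Insig1 differed in that 1 of its 2 monoallelic clones had a high total. In astrocyte clone C2, 83 of 34560 reads were from Cast (0.240%, Wilson interval 0.194 to 0.298%), and in NPC clone F5 40 of 12295 (0.325%, 0.239 to 0.443%). The other clones ran from 44.5 to 51.7%. In C2 the 129 allele alone gave 1289 RPM, against 518, 400.4, 333 and 498 in 129, G4, mC3 and mE6, and C2 had the highest total of all astrocyte clones, 764 CPM. In F5 the 129 allele gave 379.8 against 290.3 and 461 in mG2 and mG6, and F5 had the lowest total of the 3 poly(A) NPC clones. These clones have 1 library each, so neither pattern has a replicate.

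**Figure D5:**
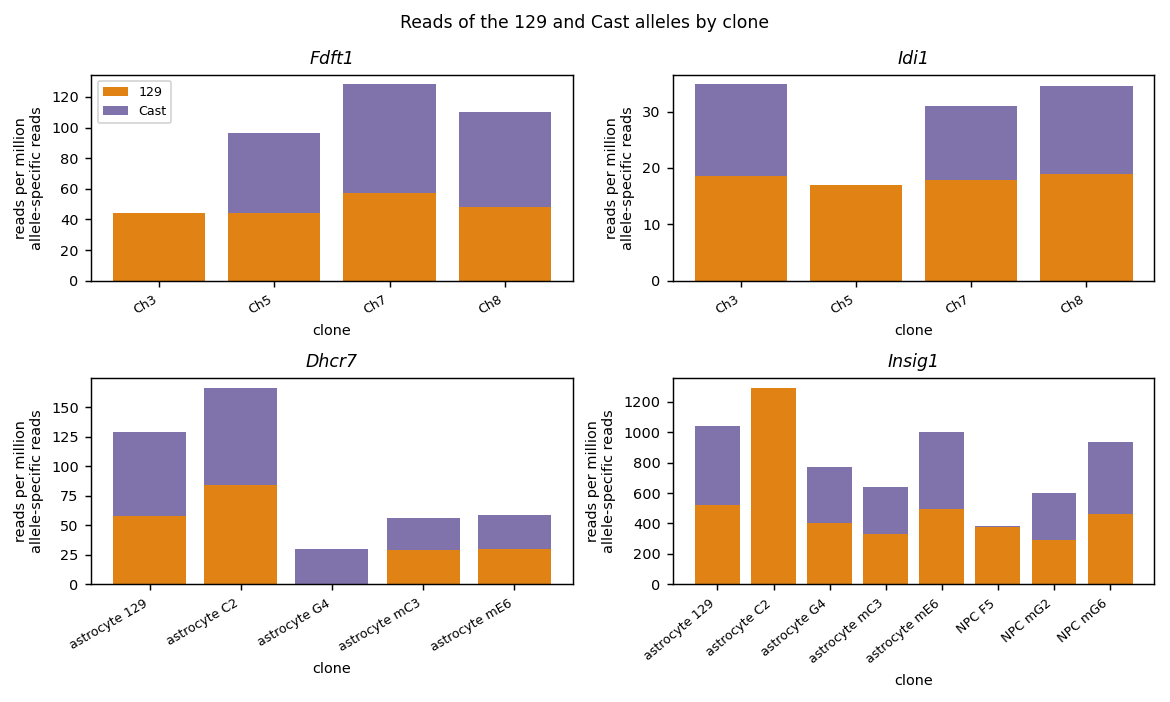
Reads of the 129 allele (orange) and the Cast allele (purple) in RPM, stacked by clone, for Fdft1 and Idi1 in the Ch clones, Dhcr7 in astrocytes, and Insig1 in astrocytes and poly(A) NPCs. The single remaining allele is near its level elsewhere for Fdft1 in Ch3 and Idi1 in Ch5, while the 129 allele of Insig1 in C2 exceeds the sum of both alleles in every other clone shown.

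A different question is whether a member favoured the same allele in all clones. Of 26 members tested over the poly(A) clones, 9 had unequal alleles in astrocytes, where 37.1% of 10084 autosomal genes did, and 7 in NPCs, where 25.0% did (edgeR's quasi-likelihood test with library as a block, Benjamini-Hochberg adjusted). In astrocytes 3 favoured Cast, where 14.7% of genes did, and 6 favoured 129 (22.4%), and in NPCs 2 favoured Cast (9.59%) and 5 favoured 129 (15.4%). Without NPC clone mG6, 4 members were called in NPCs, those without a call being Fdft1, Idi1 and Msmo1 (adjusted p = 0.0911, 0.0594 and 0.0663, edgeR, within 0.0100 to 0.0911, 0.00858 to 0.0594 and 0.0119 to 0.0679 over all settings). Over all genes, 1422 of 10131 were called without mG6 against 2517 of 10084 with it. Scaling every allele column with TMM moved the share of calls that favour Cast, over all genes, from 39.7 to 49.1% in astrocytes and from 38.4 to 53.0% in NPCs, so small imbalances are relative to that scaling.

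Acat2, the thiolase that joins acetyl-CoA at the start of the chain, favoured Cast in all 12 clones, at 67.1, 67.4, 68.5, 62.2 and 67.3% in astrocyte clones 129, C2, G4, mC3 and mE6, 62.0, 65.8 and 68.7% in NPC clones F5, mG2 and mG6 and 61.1, 64.3, 64.4 and 61.8% in Ch3, Ch5, Ch7 and Ch8. No clone was below 61.1%. The log2 ratio of Cast to 129 was 0.99 ± 0.08 in astrocytes and 0.93 ± 0.10 in NPCs (SE, n = 5 and 3, adjusted p = 1.24e-04 and 8.28e-04, edgeR). Pmvk favoured 129, at 27.1, 28.1, 42.6, 25.03 and 26.3% Cast in the astrocyte clones, 29.2, 25.9 and 23.2% in the NPC clones and 27.4, 28.03, 30.5 and 26.2% in the Ch clones. All clones but G4 were between 23.2 and 30.5%, and in G4 the median of its window on chromosome 3 was 66.1%. Its log2 ratio was -1.26 ± 0.17 in astrocytes and -1.51 ± 0.22 in NPCs (SE, n = 5 and 3, adjusted p = 0.00126 and 0.00291, edgeR).

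Hsd17b7 favoured 129 as well, at 37.2, 42.9, 38.6, 39.3 and 41.8% in the astrocyte clones, 38.3, 36.1 and 43.0% in the poly(A) NPC clones and 23.8, 24.3, 25.5 and 25.5% in the Ch clones. The Ch clones were lower than all others, and their windows on chromosome 1 had medians of 32.4 to 33.7%, while that of astrocyte clone 129 was at 35.9%. The log2 ratio was -0.59 ± 0.07 and -0.64 ± 0.09 in the poly(A) groups (SE, n = 5 and 3, adjusted p = 8.81e-04 and 0.00293, edgeR). Smaller imbalances were called in both groups for Fdft1 (0.28 and 0.22), Idi1 (-0.29 and -0.29) and Msmo1 (-0.28 and -0.28). Cyp51 (0.16), Lss (-0.23) and Srebf2 (-0.09) were called in astrocytes, and Scap (-0.31) in NPCs. In NPCs, the call of Msmo1 was also lost with TMM scaling (adjusted p = 0.0609, edgeR) and without F5 (0.0679), within 0.0119 to 0.0679, and that of Fdft1 without mG2 (0.0610), within 0.0100 to 0.0911. In astrocytes, by edgeR's test, that of Srebf2 was lost with TMM scaling (adjusted p = 0.304) or without clone 129, mC3 or mE6 (0.0567, 0.0676 and 0.0665, within 0.0239 to 0.304), and that of Lss without C2 (0.0556, within 0.0169 to 0.0556).

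The allelic balance of 0 members differed between astrocytes and poly(A) NPCs by edgeR, where 1.08% of genes did, with 2 at an unadjusted p under 0.05. These were Scap, at 50.7, 50.2, 47.6, 48.6 and 48.02% in the astrocyte clones and 45.1, 45.7 and 43.3% in the NPC clones (adjusted p = 0.106, edgeR), and Cyp51, at 51.6, 52.7, 54.6, 52.4 and 52.6% and 49.2, 50.02 and 48.6% (adjusted p = 0.122, edgeR). Neither pair of ranges overlapped, but neither difference passed after adjustment. Cyp51, the lanosterol demethylase, was also at 35.1, 34.0, 34.7 and 34.2% in the Ch clones, whose windows on chromosome 5 were balanced (49.2 to 52.7%). Clone and preparation cannot be told apart there.

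Several members followed the balance of their chromosome. On chromosome 1, Soat1 was at 34.2, 34.97, 33.2 and 32.6% in the Ch clones and 30.7% in astrocyte clone 129, with window medians of 31.7 to 32.4%, and at 43.4 to 52.9% in the other astrocyte and poly(A) NPC clones. Insig2, on the same chromosome, was at 39.4, 43.2, 38.2 and 32.0% in the Ch clones and 39.0% in astrocyte clone 129, against 48.1 to 56.6% in the others. In astrocyte clone G4, Fdps was at 60.6% (window 66.1%), Npc1 at 64.6% (66.1%) and Npc2 at 62.0% (71.3%). Npc2 was also at 63.4% in NPC clone F5 (73.4%), and at 34.4 to 42.7% in the clones with a balanced window. G4 and F5 are also the clones with the highest Npc2 level of their group, and G4 that with the highest Npc1 level, and the part of the chromosome in these levels was not tested. Both alleles of Npc1 were above the other clones in G4, where the Cast allele gave 216 RPM against 60.9 to 73.3 in the other astrocyte clones, and the 129 allele 118 against 65.2 to 91.6.

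Abca1 and Mylip, the members with the largest rise in astrocytes, varied between clones as well. Abca1 was at 78.7, 53.8, 57.5, 56.8 and 58.4% in astrocyte clones 129, C2, G4, mC3 and mE6 and 70.2, 58.2 and 52.0% in NPC clones F5, mG2 and mG6, and the windows around it on chromosome 4 were at 49.0% in clone 129 and 48.8% in F5, the clones with the strongest bias. In clone 129 its Cast allele gave 1102 RPM and its 129 allele 299, while in G4, the other clone with a high total, the alleles gave 1141 and 843. Mylip was at 54.7, 59.8, 69.3, 46.7 and 58.6% in the astrocyte clones and 54.8, 44.3 and 40.1% in the poly(A) NPC clones, and its allele-specific reads in Ch3, Ch5, Ch7 and Ch8 numbered only 18, 28, 26 and 26.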

How the data were processed

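The counts of reads per gene were made by the authors with FeatureCounts 1.5.1 after Tophat 2.1.0 aligned reads to a GRCm38/mm10 genome masked at strain variants, and reads were given to alleles with SNPsplit 0.3.2. The deposited fraction of Cast reads was set by the authors where 10 or more reads could be told apart, and percent Cast was computed again here from the deposited allele counts. Levels and tests used edgeR 4.0.16 with limma 3.58.1 and DESeq2 1.42.0 in R 4.3.3, and tables and figures came from Python 3.11.15 (pandas 2.3.3, numpy 2.4.6, matplotlib 3.10.9 and scipy 1.17.1). Low counts were filtered over all genes, libraries scaled by TMM, groups compared by quasi-likelihood tests with Benjamini-Hochberg adjustment over all genes, and clones by an F test over the 4 Ch clones. Allele tests took the library as a block. The 28 named genes were listed by their known role in sterol metabolism, and they and the 15 lists (4 of members, 4 of related pathways and 7 of markers) were chosen with earlier results of these data known. Clones are the biological replicates and no samples were paired. The 2 libraries of a Ch clone are taken as biological replicates, which the study's methods mention without naming them. Alternatives were DESeq2, RLE size factors, library totals, no filter, sex as covariate, a replicate block, each library or Ch clone left out, astrocytes of 1 title prefix, Ch clones added, other read minima, TMM for allele columns and other allelic ranges. Hmgcs1 was left out of levels, tests and allele results for want of an identifier and kept in the promoter search, and the counts and sums of the oligodendrocyte lineage list are not given. Each test was tested on simulated data with known differences, and the identifiers and totals were checked against the files.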

Additional observations from a re-analysis of the deposited data

Results flagged for a closer look

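A clone far from the other 4 astrocyte clones was found in 8 of 53 groups of values, by Dixon's Q at a level at which chance marks about 1 in 20 groups. That rate was not measured here, and the groups share clones, with 5 of the 8 in G4. For percent Cast these were Acat2 in mC3 (62.2%), Pmvk in G4 (42.6%), Fdps in G4 (60.6%), Dhcr7 in G4 (99.6%), Insig1 in C2 (0.24%), Npc2 in G4 (62%) and Abca1 in clone 129 (78.7%). For level it was Npc1 in G4, at 255 CPM.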

How the results depend on the processing

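The calls of an alternative need not be the same genes. The count of members higher in astrocytes, 4, was 1 to 4 when a library was left out, 2 with B129 astrocytes alone (1 of them among the 4) and 8 with the Ch clones added to the NPCs. Over all genes, those higher were 2360 of 18192, 1796 of 18257 with B129 alone and 4395 of 18042 with the Ch clones. The count of members lower, 0, was 0 to 1 without a library, 1 by DESeq2 and 4 with the Ch clones. Over all genes, DESeq2 called 6280 of 18192 in either direction, of which 3280 were higher. With the Ch clones 8739 of 18042 were called, of which 4395 were higher. The count differing among Ch clones, 8, was 3 to 10 without a library, 3 without clone Ch3, 4 without clone Ch7, 11 with the replicate block and 12 without a filter on low counts. Over all genes it was 2834 of 17095, 3391 of 17095 with the replicate block and 4361 of 31234 without a filter. Without a library it ran from 1509 of 17696 to 3244 of 17955, and it was 1112 of 16669 without Ch3 and 1798 of 16758 without Ch7. The count with unequal alleles in NPCs, 7, was 4 to 8 without a library. Over all genes it was 2517 of 10084, and from 1422 of 10131 to 2793 of 10171 without a library. The biallelic share of 85.2% was 76.0% with a range of 40 to 60% and 89.0% without windows of unequal balance, an alternative chosen after seeing the data. Signs of small log2 fold changes turned, given here by gene. With sex as a covariate they were -0.0020 for Fdps, -0.1357 for Fdft1, -0.1498 for Lss, -0.1282 for Sc5d and -0.1758 for Soat1. With A234 astrocytes alone they were -0.0554 for Fdft1, -0.0609 for Lss, -0.2008 for Sc5d, -0.1256 for Npc1, -0.0798 for Npc2 and -0.0711 for Soat1. With Ch clones added they were 0.1995 for Idi1, -0.4788 for Fdps, -0.1074 for Lss, 0.1296 for Cyp51 and -0.3762 for Soat1. With library totals Sc5d was at -0.0187 and Soat1 at -0.0262, without a filter -0.0076 and -0.0344, and Soat1 was at -0.0122 by DESeq2 and by RLE size factors. Leaving out each library gave -0.0078 to 0.5169 for Fdps, -0.2179 to 0.3203 for Fdft1, -0.0917 to 0.4547 for Lss, -0.1853 to 0.1680 for Sc5d, -0.0861 to 0.4248 for Npc1, -0.0558 to 0.6132 for Npc2 and -0.1622 to 0.1294 for Soat1. The cause was not tested. No paired analysis was possible because astrocyte and NPC clones differ. Further limits are the small groups, 1 library for each poly(A) clone, and mapping of reads to 1 of 2 alleles by others before deposit.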
